A study of Mus musculus with 8 samples.

Results

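The genes that carry Wnt signals between cells were followed through the differentiation of mouse embryonic stem cells (ESCs). Members were taken by name from the list of counted genes: every Wnt ligand (Wnt), Frizzled receptor (Fzd), secreted Frizzled-related protein (Sfrp) and Dickkopf protein (Dkk), together with Lef1, Tcf7, Tcf7l1, Tcf7l2, Axin1, Axin2, Ctnnb1, Lgr4, Lgr5, Lrp5 and Lrp6. This rule gave 48 genes of the 24421 in the count lists. They comprised 19 ligands, 10 Frizzled receptors, 4 co-receptors (Lrp5, Lrp6, Lgr4 and Lgr5), 4 Sfrp genes, 4 Dkk genes, 3 genes of the catenin and Axin group (Ctnnb1, Axin1 and Axin2) and 4 TCF/LEF transcription factors. A total of 5 members had no read in any library, and 12 reached at most 5 reads in any library.

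The cells were the R1 line of mouse ESCs, and every library was made from polyadenylated RNA of this line. Undiff cells had been kept in ESC growth medium and had received no retinoic acid (RA). Day4 cells had been grown as embryoid bodies, floating aggregates of ESCs, first without the self-renewal factor LIF and then with RA for 4 days. The RA concentration is given as 2 µM in the design text and the methods and as 2 mM in the treatment label, and all libraries carry the tissue label of embryoid bodies although the methods describe the Undiff cells as maintained ESCs. Day4 thus differed from Undiff in RA, in time, in LIF and in growth as aggregates, which cannot be told apart.

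RNA of each state was sequenced on Oxford Nanopore (ONT) flow cells with a Direct RNA kit, which reads the native strand, and with a cDNA kit, which reads PCR-amplified copies. There were 8 libraries in 4 groups of platform and state, with 2 replicates in each, grown and treated separately. As the study describes it, RNA of the same duplicate cultures went into both kits, so the platforms are repeat measurements of shared cultures and a call on both is not support from separate cultures. The Direct RNA libraries held 283461 to 907489 reads on genes and the cDNA libraries 948657 to 2088592, and replicate 2 was the deeper library in every group. Levels are given as CPM, reads per 1000000 reads on genes. CPM and pooled ratios were scaled by these totals and the fold changes by the size factors of each test, so they can differ. The lowest level that a library could show, set at 3 reads, lay between 1.44 and 10.6 CPM, so that many ligands stood close to it. All intervals below are 95% intervals for counting error only.

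Wnt proteins are secreted, lipid-modified ligands that bind Frizzled receptors on the receiving cell. With the co-receptors Lrp5 and Lrp6, a bound ligand stops the destruction complex, of which Axin is the scaffold, from degrading beta-catenin, and beta-catenin then works with TCF/LEF factors on target genes. Sfrp proteins hold ligands outside the cell, Dkk proteins such as Dkk1 occupy the co-receptors, and Lgr receptors bind R-spondins, which keep Frizzled receptors at the surface. In mouse ESCs the beta-catenin branch is known to favour self-renewal, and some ligands, such as Wnt4, Wnt5a and Wnt11, often act through other branches that steer cell shape and movement.

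The main question was which parts of this pathway differed between the states. A gene was called with an adjusted p of at most 0.05 in the Wald test of DESeq2, a shrunken log2 fold change of 1 or more in either direction and a mean normalised count of 5 or more. In Direct RNA 11 members were called higher at Day4 and 1 lower, against 9.54% of 9646 genes called higher and 7.67% called lower. In cDNA 10 members were called higher and 1 lower, against 8.69% of 10271 genes called higher and 9.24% called lower. A mean of 5 was reached by 25 members on each platform, and a gene could reach it through the Day4 libraries alone. By DESeq2, Direct RNA gave 5 of the 19 ligands as higher and cDNA gave 4, with none lower. Only 7 ligands in Direct RNA and 6 in cDNA reached a mean of 5. All ligands together held 15 and 77 reads in the Direct RNA Undiff libraries and 7 and 30 in those of cDNA, which left little room for a lower call. Of the 10 Frizzled receptors 4 were called higher and 1 lower in Direct RNA, and 3 higher in cDNA. Among the 4 Sfrp genes Direct RNA gave 2 as higher, and cDNA gave 1 as higher and 1 as lower. Among the catenin and Axin genes and the TCF/LEF factors the only call by DESeq2 was that of Tcf7l2, higher in cDNA.

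By DESeq2, the 7 members called higher on both platforms were Fzd1, Fzd2, Fzd7, Sfrp1, Wnt4, Wnt5a and Wnt11, and no member was called lower on both. A mean of 5 on both platforms was reached by 17 members and by 8720 genes, of which 6.19% were called higher on both and 5.18% lower. The edgeR test took in 24 members in Direct RNA and 22 in cDNA. It called 16 members higher and 2 lower in Direct RNA, against 20.6% and 14.9% of 8420 genes. In cDNA it called 12 higher and 2 lower, against 16.4% and 14.3% of 9171 genes. By edgeR Fzd3 and Wnt9a were also higher on both, and Tcf7 was lower on both. The median log2 fold change over the 43 members with a read in Direct RNA was 1.58, and over all 15451 such genes it was 0.06. Over the 42 members with a read in cDNA it was 0.64, and over all 16669 genes 0.04. With the 11 members that had no read in a state on a platform set to their bound, the medians were 1.04 in Direct RNA and 0.49 in cDNA.

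**Figure D1:**
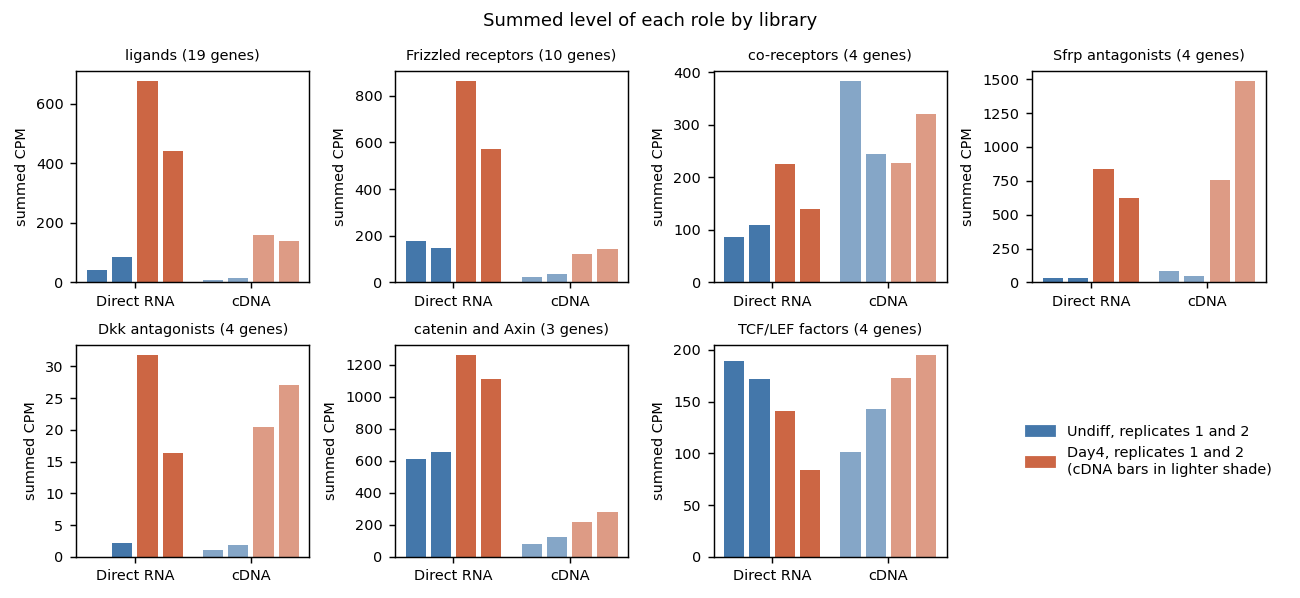
Summed level of each role in CPM (vertical axis, from 0) in each library, with Undiff in blue and Day4 in orange and the bars of replicates 1 and 2 side by side. Ligands, Frizzled receptors, Sfrp, Dkk and catenin and Axin genes stood higher in both Day4 libraries than in both Undiff libraries on each platform. On this scale of total reads, TCF/LEF factors stood lower at Day4 in Direct RNA and higher in cDNA. The cDNA log2 fold changes of Tcf7, Tcf7l1 and Lef1 were -2.00, -0.76 and -0.05, and that of Tcf7l2 was 1.78.

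The ligands, the signals themselves, summed to 43 and 84.8 CPM in the Direct RNA Undiff libraries and to 677 and 442 CPM in the Day4 libraries. In cDNA the sums were 7.38 and 14.4 CPM at Undiff and 160 and 139 CPM at Day4. The groups did not overlap on either platform. In bulk RNA such as this, fewer cells of a type and less RNA per cell cannot be told apart.

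Wnt4 (chr4:137277489-137299726, GRCm38, plus strand) is a ligand known from kidney and gonad development. Its level was 5.74 and 0 CPM in the Direct RNA Undiff libraries and 286 and 153 CPM at Day4, and in cDNA 0 and 0.958 CPM against 92.6 and 64.5 CPM. Wnt4 was near or at 0 in every Undiff library and far above the 3-read floor in every Day4 library. DESeq2 gave a log2 fold change of 4.83 ± 1.19 (SE) for the Direct RNA libraries, with an adjusted p of 0.00113, and 5.92 ± 0.92 for the cDNA libraries, with an adjusted p of 1.33e-08. The pooled reads gave a ratio of 119 in Direct RNA (interval 32.6 to 992) and of 114 in cDNA (31.4 to 951), each on 2 Undiff reads. In Direct RNA the call was lost without Day4 replicate 1 or 2 (log2 fold change 2.06 and 2.65, adjusted p = 0.62 and 0.533).

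Wnt11 (chr7:98835112-98855195, plus strand), a ligand of the branch that guides cell movement, went from 0 and 3.31 CPM to 109 and 119 CPM in Direct RNA. In cDNA it went from 0 and 0.479 CPM to 19 and 18.3 CPM. Both Day4 replicates were close to each other on each platform and clear of the Undiff libraries. Its log2 fold change was 4.96 ± 0.86 (adjusted p = 4.96e-07) with Direct RNA reads and 4.43 ± 1.17 (adjusted p = 0.00284) with cDNA reads. The Direct RNA call was kept when any single library was left out. The cDNA call was lost without Undiff replicate 2, Day4 replicate 1 or Day4 replicate 2 (log2 fold change 3.55 to 4.02, adjusted p 0.0996 to 0.142).

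Wnt5a (chr14:28504750-28527448, plus strand), the best known ligand of the beta-catenin-independent branches, stood at 0 and 1.1 CPM at Undiff and at 70.6 and 29.8 CPM at Day4 in Direct RNA. In cDNA it stood at 2.11 and 0.479 CPM against 19 and 26 CPM. The states did not overlap. Its log2 fold change was 4.58 ± 1.12 (adjusted p = 0.000985) and 3.52 ± 0.99 (adjusted p = 0.00556), in that order of platforms. Without Undiff replicate 2 or Day4 replicate 1 the Direct RNA call was lost (log2 fold change 3.16 to 4.02, adjusted p 0.124 to 0.189), and without Undiff replicate 2 or either Day4 replicate the cDNA call was lost (2.48 to 3.09, adjusted p 0.17 to 0.381).

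Its close relative Wnt5b (chr6:119432531-119544347, minus strand) had 0 reads in both Direct RNA Undiff libraries and 10 and 20 reads at Day4, which is at least 12-fold higher against a floor of 3 reads over the group. In cDNA it had 2 and 0 reads at Undiff and 3 and 7 reads at Day4, all within a few reads of the floor. This gave a log2 fold change of 4.66 ± 1.26 for the Direct RNA libraries, with an adjusted p of 0.00381, and 0.82 ± 1.44 for the cDNA libraries, with an adjusted p of 0.913. The Direct RNA call was lost when any of the 4 libraries was left out (log2 fold change 3.40 to 4.22, adjusted p 0.0558 to 0.33).

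Wnt9a (chr11:59306928-59333552, plus strand), known from joint and bone formation, was at 2.87 and 3.31 CPM in Direct RNA Undiff and at 81.1 and 43.4 CPM at Day4. The cDNA levels were 0 and 1.44 CPM at Undiff and 13.7 and 9.15 CPM at Day4. The states were separated on both platforms, and the log2 fold change was 3.67 ± 0.91 (adjusted p = 0.00113) for Direct RNA and 2.84 ± 1.16 (adjusted p = 0.098) for cDNA. The quasi-likelihood test of edgeR gave an adjusted p of 0.0153 in cDNA. DESeq2 called Wnt9a higher in cDNA with the low-count filter. The Direct RNA call was lost without Undiff replicate 2 or Day4 replicate 1 (log2 fold change 2.79 to 3.30, adjusted p 0.168 to 0.203).

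Wnt2 (chr6:17988940-18030585, minus strand), a ligand of lung and liver mesenchyme, had no read in any Undiff library. At Day4 it had 0 and 9 reads in Direct RNA and 10 and 16 reads in cDNA. The Direct RNA libraries therefore overlapped and the cDNA libraries did not. In cDNA the level was at least 7.8-fold higher at Day4, the log2 fold change was 3.87 ± 1.39 and the adjusted p was 0.0494. This call was lost without shrinkage (adjusted p = 0.0546) and when any of the 4 libraries was left out (log2 fold change 2.55 to 3.60, adjusted p 0.164 to 0.559). In Direct RNA the adjusted p was 0.532.

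The other ligands were not called between the states by DESeq2 on either platform. Wnt6 and Wnt7b, given with the platforms below, and Wnt3 reached a mean of 5 on a platform. Wnt2b, a paralogue of Wnt2, had no read in the Undiff libraries and between 2 and 13 reads in the Day4 libraries, with adjusted p values of 0.134 in Direct RNA and 0.595 in cDNA. Wnt3, a ligand needed for the primitive streak, had between 1 and 12 reads in every library and log2 fold changes of 0.11 ± 1.44 and -0.37 ± 1.15. Wnt1, Wnt3a, Wnt8a, Wnt9b and Wnt10a had between 0 and 3 reads per library. Wnt7a, Wnt8b, Wnt10b and Wnt16 had none, which at the depth of cDNA Undiff replicate 2 allows up to 1.44 CPM.

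**Figure D2:**
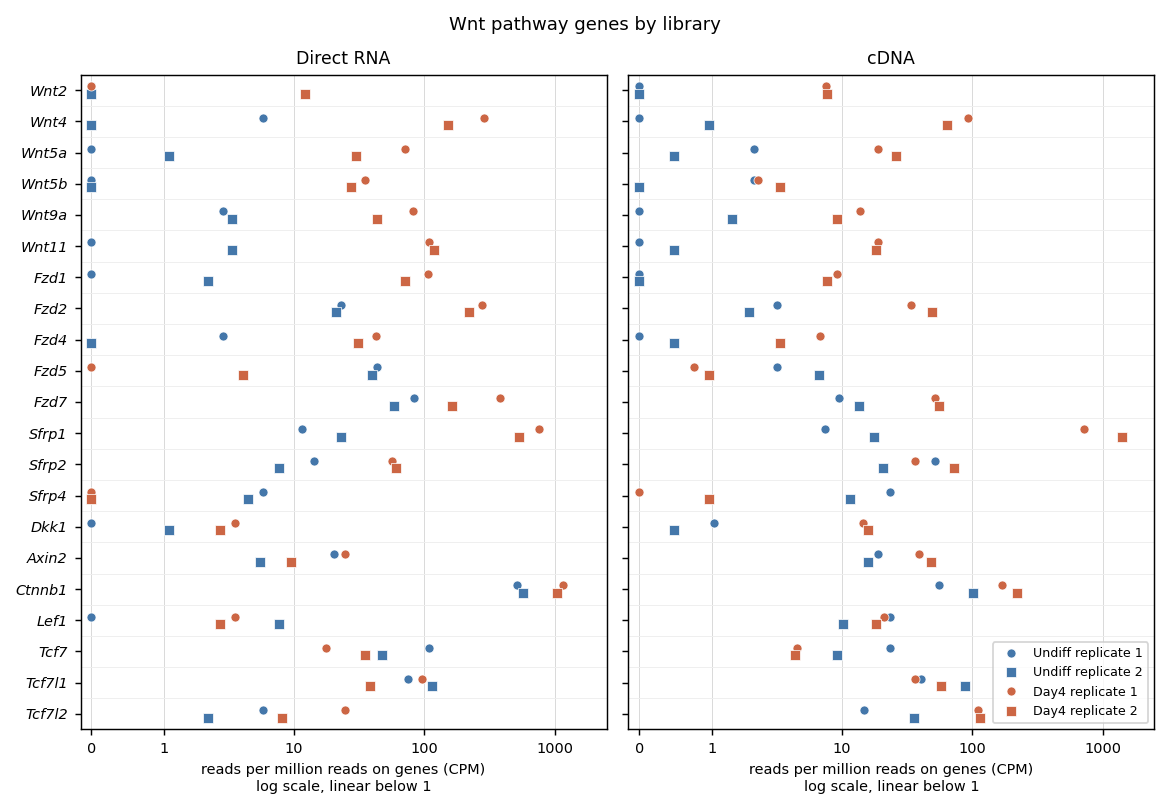
Level in CPM (horizontal axis, log scale that is linear below 1) of the members called between states and of 5 pathway genes shown whatever their values, in Direct RNA (left) and cDNA (right), with circles for replicate 1 and squares for replicate 2. Both Day4 libraries of Sfrp1, from 531 to 1409.5 CPM, lay above all its Undiff libraries, from 7.38 to 23.1 CPM, and Fzd5 and Sfrp4 showed the opposite order.

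The bases before the annotated starts were searched for the motif CTTTGAT, the core that TCF/LEF factors recognise, and for AGGTCA, a half-site of nuclear receptors such as those for RA, on both strands of windows of 300 bases (RefSeq, GRCm38.p6). The windows held 250 bases before the start and 50 after it, and 32 of the 48 members had at least 1 window, 41 windows in all. CTTTGAT was found in 2 of the 41 windows, those of Wnt5b and Wnt11, and in 3.73% of all 32851 windows. AGGTCA was found in windows of 2 members, Tcf7 and Wnt16, and in 16.3% of all windows. The 250 bases before the starts of the 2 ligands with CTTTGAT are given to show where the letters lie.

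The Wnt5b stretch is chr6:119449387-119449636 on the minus strand, inside the gene's span and outside its annotated exons. The Wnt11 stretch is chr7:98834862-98835111 on the plus strand, outside annotated genes. Capitals mark CTTTGAT, which in Wnt11 lies on the opposite strand and reads ATCAAAG, and the match begins 71 bases before the start of Wnt5b and 51 bases before that of Wnt11.
Wnt5b: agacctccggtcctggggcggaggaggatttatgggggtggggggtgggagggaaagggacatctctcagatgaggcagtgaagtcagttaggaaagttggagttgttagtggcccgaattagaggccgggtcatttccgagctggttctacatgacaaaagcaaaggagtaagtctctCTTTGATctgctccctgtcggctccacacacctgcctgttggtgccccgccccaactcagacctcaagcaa
Wnt11: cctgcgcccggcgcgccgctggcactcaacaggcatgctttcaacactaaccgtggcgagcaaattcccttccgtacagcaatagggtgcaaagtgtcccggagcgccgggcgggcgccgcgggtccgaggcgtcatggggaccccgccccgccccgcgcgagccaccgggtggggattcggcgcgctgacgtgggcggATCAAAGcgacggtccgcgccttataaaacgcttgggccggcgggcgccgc
A match of these letters is a description of the sequence, and no binding was measured.

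The Frizzled receptors, which receive the ligands, summed to 178 and 148 CPM in Direct RNA Undiff and to 864 and 572 CPM at Day4. The cDNA sums were 23.2 and 35.9 CPM at Undiff and 120 and 142 CPM at Day4. Fzd1, Fzd2 and Fzd7, which are close relatives encoded by genes of a single exon, were called higher on both platforms, Fzd4 was called higher in Direct RNA alone and Fzd5 was called lower in Direct RNA alone.

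Fzd2 (chr11:102604396-102608058, plus strand) was measured at 23 and 20.9 CPM in Direct RNA Undiff and at 275 and 221 CPM at Day4. In cDNA it was at 3.16 and 1.92 CPM and then at 34.1 and 49.1 CPM. The states were far apart on both platforms and the replicates close together. Fzd2 had a log2 fold change of 3.29 ± 0.49 (adjusted p = 2.3e-09) in Direct RNA and of 3.52 ± 0.78 (adjusted p = 0.000201) in cDNA. The Direct RNA call was kept when any single library was left out, and the cDNA call was lost without Undiff replicate 2 or Day4 replicate 2 (log2 fold change 2.90 to 3.06, adjusted p 0.0729 to 0.145).

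Fzd1 (chr5:4753839-4758035, minus strand) was at 0 and 2.2 CPM in Direct RNA Undiff and at 106 and 70.5 CPM at Day4, a pooled ratio of 50.4 (interval 13.5 to 423). In cDNA it had no read at Undiff and 12 and 16 reads at Day4, which is at least 8.3-fold higher. It was thus at or under the floor in the Undiff libraries and above it in the Day4 libraries. The log2 fold change was 4.93 ± 0.95 (adjusted p = 9.97e-06) in Direct RNA, a call that no single library removed. In cDNA it was 4.03 ± 1.38 (adjusted p = 0.0349), and this call was lost when any of the 4 libraries was left out (log2 fold change 2.55 to 3.74, adjusted p 0.133 to 0.546).

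Fzd7 (chr1:59482424-59486955, plus strand), a receptor known from ESC self-renewal, was present in every library. Its levels were 83.2 and 58.4 CPM in Direct RNA Undiff, 381 and 163 CPM in Direct RNA Day4, 9.49 and 13.4 CPM in cDNA Undiff and 51.6 and 55.8 CPM in cDNA Day4. The Day4 libraries lay above the Undiff libraries throughout, with a wide gap between the Direct RNA Day4 replicates. The log2 fold change was 1.79 ± 0.47 (adjusted p = 0.00274) and 1.82 ± 0.59 (adjusted p = 0.0242). The Direct RNA call was lost without Undiff replicate 1, Undiff replicate 2 or Day4 replicate 1 (log2 fold change 1.13 to 1.86, adjusted p 0.0793 to 0.469), and the cDNA call when any of the 4 libraries was left out (1.58 to 1.93, adjusted p 0.22 to 0.438).

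Fzd4 (chr7:89404355-89413134, plus strand), a receptor of blood vessel development, had 1 and 0 reads in Direct RNA Undiff and 12 and 23 reads at Day4, and in cDNA 0 and 1 reads against 9 and 7 reads. The states did not overlap on either platform. Fzd4 had a log2 fold change of 3.98 ± 1.14 (adjusted p = 0.0073) with Direct RNA reads and 2.59 ± 1.41 (adjusted p = 0.286) with cDNA reads. The Direct RNA call was lost without Undiff replicate 2 or either Day4 replicate (log2 fold change 2.58 to 3.38, adjusted p 0.228 to 0.532).

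Fzd5 (chr1:64730558-64737751, minus strand), a receptor known from the yolk sac and the eye, took the opposite direction. It was at 43 and 39.7 CPM in Direct RNA Undiff and at 0 and 4.07 CPM at Day4, and in cDNA at 3.16 and 6.7 CPM against 0.759 and 0.963 CPM. Both Day4 libraries were at or under the 3-read floor on each platform. Its log2 fold change was -3.45 ± 1.01 for the Direct RNA libraries, with an adjusted p of 0.00958, and -2.22 ± 1.27 for the cDNA libraries, with an adjusted p of 0.326. The pooled Direct RNA ratio was 0.0724 (interval 0.0144 to 0.224), on 3 Day4 reads. The call was lost when any of the 4 libraries was left out (log2 fold change -3.73 to -2.69, adjusted p 0.132 to 0.4).

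Of the remaining receptors, Fzd3, Fzd8 and Fzd10 reached a mean of 5 on a platform and were not called there by DESeq2 as run here. Fzd3, which guides axons, had 1 and 1 reads at Undiff and 6 and 23 at Day4 in Direct RNA, and 2 and 9 against 21 and 41 in cDNA. The states did not overlap, and DESeq2 gave adjusted p values of 0.0612 and 0.174 where edgeR gave 0.00064 and 0.0187 and called it higher on both platforms. DESeq2 called Fzd3 higher in Direct RNA with the low-count filter or with the Cook's cutoff and independent filtering. Fzd8 was called higher at Day4 by edgeR in Direct RNA (log2 fold change 2.64, adjusted p = 0.00244). Fzd10 had between 0 and 18 reads, with log2 fold changes of -0.84 ± 1.20 in Direct RNA and -2.81 ± 1.22 in cDNA (adjusted p = 0.858 and 0.136). Fzd6 and Fzd9 had between 0 and 8 reads in every library.

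The make-up of the Frizzled reads therefore differed between the states. Fzd5 and Fzd10 together held 30.6% and 33.6% of all Frizzled reads in the Direct RNA Undiff libraries (Wilson intervals 20.6 to 43 and 26.1 to 41.9) and 0.408% and 1.9% at Day4 (0.0721 to 2.28 and 0.964 to 3.7). In cDNA they held 36.4% and 42.7% at Undiff and 0.633% and 1.69% at Day4. Fzd1, Fzd2 and Fzd7 together held between 42.7% and 59.7% of the Frizzled reads in the Undiff libraries and between 79.1% and 88.2% in the Day4 libraries. These sets were chosen after the values were seen and carry no test. The share of Fzd7 alone overlapped between the states. It was 46.8% and 39.6% in Direct RNA Undiff and 44.1% and 28.4% at Day4. In cDNA it was 40.9% and 37.3% at Undiff and 43% and 39.2% at Day4.

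**Figure D3:**
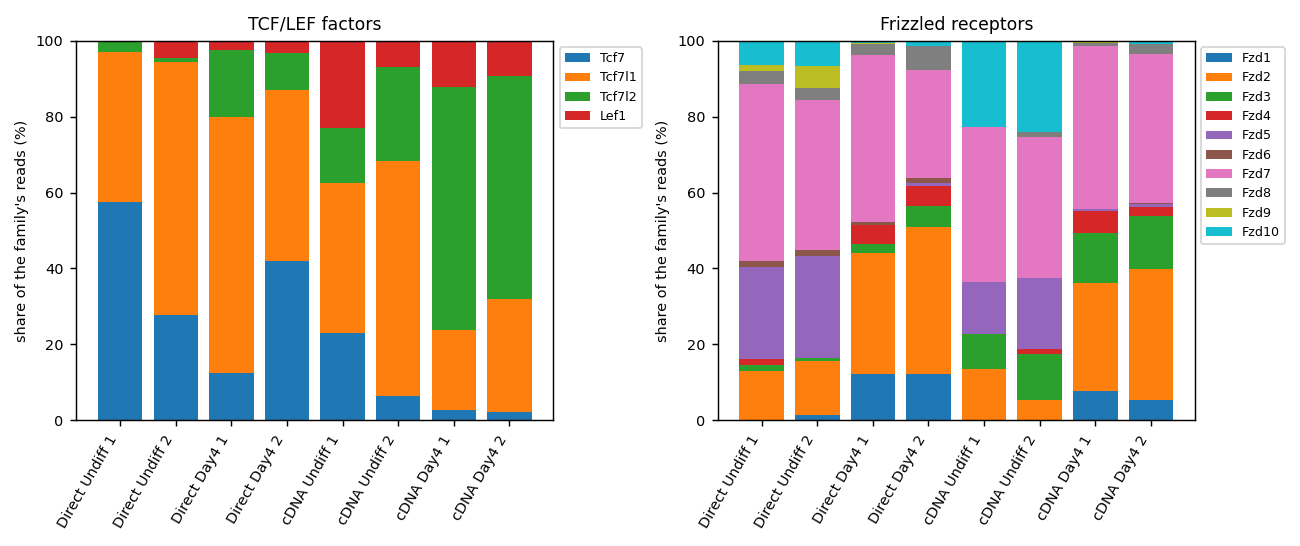
Share of each gene in the reads of its family (vertical axis, % of the family's reads) in each of the 8 libraries, for TCF/LEF factors (left) and Frizzled receptors (right). The share of Tcf7l2 was 64% and 58.9% in the cDNA Day4 libraries and 17.5% and 9.68% in those of Direct RNA, and the shares of Fzd5 and Fzd10 were small in all Day4 libraries.

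DESeq2 called no co-receptor between the states on either platform, while edgeR called Lrp5 higher at Day4 in Direct RNA (log2 fold change 1.02, adjusted p = 0.0473). Lrp6, the main co-receptor of the beta-catenin branch, had between 11 and 54 reads in every library, and its log2 fold changes were 0.35 ± 0.78 and 0.41 ± 0.70. Lgr5, a marker of adult stem cells, had no read at Undiff and at most 4 reads in a Day4 library. Lrp5 and Lgr4 are described with the platforms below.

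The secreted antagonist Sfrp1 (chr8:23411502-23449632, plus strand), which binds Wnt proteins, was called higher at Day4 on both platforms. It stood at 11.5 and 23.1 CPM in Direct RNA Undiff and at 758 and 531 CPM at Day4. In cDNA it stood at 7.38 and 17.7 CPM against 715 and 1409.5 CPM. Sfrp1 had a log2 fold change of 4.84 ± 0.45 (adjusted p = 1.91e-24) with Direct RNA reads and 5.84 ± 0.48 (adjusted p = 2.09e-30) with cDNA reads, and the pooled ratios were 29.9 (interval 20 to 46.5) and 78.7 (58.5 to 108). Sfrp1 was the only member whose call held on both platforms under each of the 10 alternative settings and left-out libraries that were run. Its share of the Sfrp reads was between 8.97% and 63.6% in the Undiff libraries and between 85% and 94.7% in the Day4 libraries.

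Sfrp4 (chr13:19623104-19632994, plus strand) went the other way. It had 22 and 24 reads in cDNA Undiff and 0 and 2 reads in cDNA Day4, and in Direct RNA 2 and 4 reads against none. All Day4 libraries were at or under the floor. The cDNA log2 fold change was -4.50 ± 1.08 (adjusted p = 0.000663), and the pooled ratio was 0.0389 (interval 0.00457 to 0.149), on 2 Day4 reads. The call was lost without Undiff replicate 1 (log2 fold change -3.56, adjusted p = 0.125). In Direct RNA the log2 fold change was -1.84 ± 1.46 (adjusted p = 0.579).

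Sfrp2 (chr3:83766321-83774316, plus strand) stood at 14.3 and 7.71 CPM in Direct RNA Undiff and at 56.4 and 61 CPM at Day4. The cDNA levels were 51.7 and 20.6 CPM at Undiff and 36.4 and 72.7 CPM at Day4. The states were separated in Direct RNA and overlapped in cDNA. Sfrp2 had a log2 fold change of 2.22 ± 0.77 for the Direct RNA libraries, with an adjusted p of 0.038, and 0.23 ± 0.60 for the cDNA libraries, with an adjusted p of 0.929, and the Direct RNA call was lost when any of the 4 libraries was left out (log2 fold change 1.67 to 2.37, adjusted p 0.204 to 0.762). Sfrp5 had 1 and 1 reads in Direct RNA Undiff and 6 and 24 at Day4, with a log2 fold change of 3.08 ± 1.13 and an adjusted p of 0.0552 in DESeq2. It was called higher by edgeR (adjusted p = 0.00059) and also by DESeq2 under the same 2 settings as Fzd3. In cDNA it had 1 read at Undiff and 19 at Day4 in all (adjusted p = 0.247).

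Dkk1 (chr19:30545863-30549665, minus strand), an inhibitor that binds Lrp6 and is itself a known Wnt target, had 1 and 1 reads in cDNA Undiff and 19 and 33 reads in cDNA Day4. In Direct RNA it had 0 and 1 reads against 1 and 2 reads, all under the floor. The cDNA log2 fold change was 3.45 ± 1.11 (adjusted p = 0.0207), and it was lost when any of the 4 libraries was left out (log2 fold change 2.59 to 3.57, adjusted p 0.0682 to 0.437). Dkk3 had 0 and 3 reads at Undiff and 7 and 19 at Day4 in cDNA, with an adjusted p of 0.337, and in Direct RNA 1 read at Undiff and 13 at Day4 in all (adjusted p = 0.195). Dkk2 had no read at Undiff and between 1 and 4 reads at Day4, and Dkk4 had none in any library.

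Inside the cell, Ctnnb1 (chr9:120929216-120960507, plus strand), which encodes beta-catenin, stood at 514 and 567 CPM in Direct RNA Undiff and at 1157.1 and 1033.1 CPM at Day4. In cDNA it stood at 55.9 and 101 CPM against 170 and 222 CPM. The Day4 libraries were higher than the Undiff libraries on both platforms. Its log2 fold change was 0.90 ± 0.27 in Direct RNA (adjusted p = 0.0119), which did not reach the required size of 1, and 0.97 ± 0.44 in cDNA (adjusted p = 0.157). Ctnnb1 was therefore not called.

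Axin2 (chr11:108920349-108950783, plus strand), a scaffold that the pathway itself induces and that is widely read as its target gene, stood at 20.1 and 5.51 CPM in Direct RNA Undiff and at 24.7 and 9.49 CPM at Day4. In cDNA it stood at 19 and 15.8 CPM against 38.7 and 48.6 CPM. The Direct RNA states overlapped and the cDNA states did not. The log2 fold change was 0.30 ± 1.03 (adjusted p = 0.93) with Direct RNA reads and 0.97 ± 0.59 (adjusted p = 0.373) with cDNA reads, and its sign in Direct RNA turned without Undiff replicate 2 or Day4 replicate 1. The pooled ratios, which are scaled by total reads on genes, were 1.44 (interval 0.616 to 3.4) and 2.67 (1.93 to 3.74). With the size factors of DESeq2 and no shrinkage, the log2 fold change in cDNA was 1.01 (adjusted p = 0.376). Axin1, the constitutive scaffold, had log2 fold changes of -0.23 ± 0.52 and -0.26 ± 0.95.

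The TCF/LEF factors summed to 189 and 172 CPM in Direct RNA Undiff and to 141 and 84.1 CPM at Day4, and in cDNA to 101 and 143 CPM against 173 and 195 CPM. Tcf7l2 (chr19:55741820-55933654, plus strand), a beta-catenin partner of gut and brain, stood at 14.8 and 35.4 CPM in cDNA Undiff and at 111 and 115 CPM in cDNA Day4. In Direct RNA it had 2 and 2 reads against 7 and 6 reads. The cDNA log2 fold change was 1.78 ± 0.52 (adjusted p = 0.00864) and that of Direct RNA 1.58 ± 1.17 (adjusted p = 0.538). The cDNA call was lost without Undiff replicate 1 or either Day4 replicate (log2 fold change 1.29 to 1.84, adjusted p 0.226 to 0.256).

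Tcf7 (chr11:52252371-52283014, minus strand), which mostly activates targets with beta-catenin, stood at 109 and 47.4 CPM in Direct RNA Undiff and at 17.6 and 35.3 CPM at Day4, and in cDNA at 23.2 and 9.1 CPM against 4.55 and 4.33 CPM. The Undiff libraries were higher on both platforms. Tcf7 had log2 fold changes of -1.47 ± 0.67 (adjusted p = 0.161) and -2.00 ± 0.86 (adjusted p = 0.126), and edgeR called it lower on both platforms (adjusted p = 0.0324 and 0.0309). Tcf7l1 (chr6:72626378-72789254, minus strand), the repressor that restrains self-renewal genes in ESCs, stood at 74.6 and 115 CPM in Direct RNA Undiff, 95.3 and 38 CPM in Direct RNA Day4, 40.1 and 88.6 CPM in cDNA Undiff and 36.4 and 57.8 CPM in cDNA Day4. Its states overlapped, and the log2 fold changes were -0.67 ± 0.57 and -0.76 ± 0.53.

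Lef1 (chr3:131110471-131224356, plus strand), a factor induced in mesoderm and neural crest, had 0 and 7 reads in Direct RNA Undiff, 1 and 2 reads in Direct RNA Day4, 22 and 21 reads in cDNA Undiff and 28 and 38 reads in cDNA Day4. In CPM the cDNA levels were 23.2 and 10.1 at Undiff and 21.2 and 18.3 at Day4, and the states overlapped on both platforms. The log2 fold changes were -0.35 ± 1.43 and -0.05 ± 0.71, and their signs turned in 1 of the 4 left-out fits in Direct RNA and in 2 of 4 in cDNA. Tcf7 and Tcf7l1 together held 62.5% and 68.2% of the TCF/LEF reads in cDNA Undiff (intervals 52.5 to 71.5 and 62.7 to 73.2) and 23.7% and 31.8% in cDNA Day4 (18.6 to 29.6 and 27.4 to 36.5). In Direct RNA the shares were 97% and 94.2% at Undiff and 80% and 87.1% at Day4. The pair was chosen after the values were seen and carries no test, and singly the Direct RNA shares of each overlapped between the states.

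**Figure D4:**
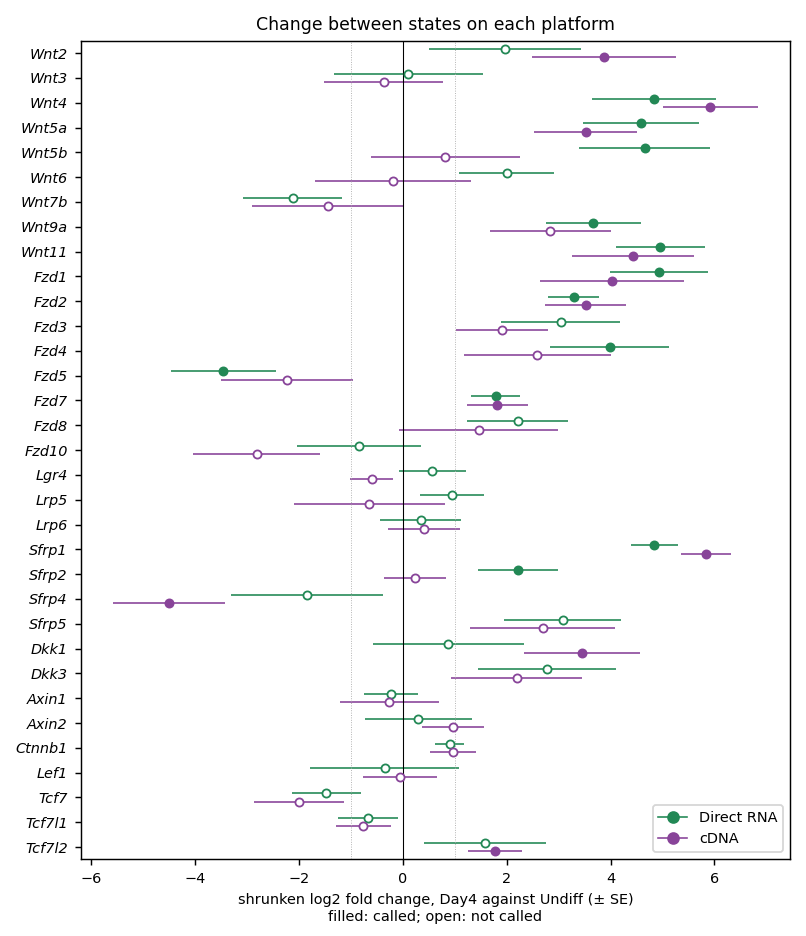
Shrunken log2 fold change of Day4 against Undiff with its SE (horizontal axis) for the members with a mean normalised count of at least 5 on a platform, grouped by role, with Direct RNA in green and cDNA in purple. Filled points were called, and dotted lines mark a change of 1. Sfrp1 stood at 4.84 and 5.84 and Fzd7 at 1.79 and 1.82.

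Whether the change between states itself differed between the platforms was tested by the interaction of platform and state over all 8 libraries. None of 43 members passed an adjusted p of 0.05 in DESeq2, where 0.0116% of 17267 genes did, and 2 members had an unadjusted p of at most 0.05. These were Sfrp2, with a difference of -2.22 ± 0.99 on the log2 scale (cDNA minus Direct RNA, adjusted p = 1), and Wnt5b, with -5.09 ± 2.48 (adjusted p = 1). With edgeR none of the 30 members tested passed. A member called on a single platform is therefore not shown to have changed differently on the other. For Sfrp1 the difference was 1.00 ± 0.68 (adjusted p = 1), and for Fzd7 it was 0.05 ± 0.75 (adjusted p = 1).

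Levels on the platforms differed for many members within the same states. In a fit of all 8 libraries that allowed for state, 6 members were called higher in cDNA and 14 lower, of 29 with a mean of at least 5. Across genes 24.7% of 10426 were called higher and 26.6% lower, so calls in either direction were common. The kits differed in input, in PCR, in read handling and in whether the counting is stated to use the strand, which cannot be told apart.

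Higher in cDNA by the largest differences were Tcf7l2, Lgr4, Lef1, Sfrp4 and Axin2, and Sfrp2 was called as well. Lgr4 (chr2:109917647-110014257, plus strand), a receptor for R-spondins, was at 23, 54, 84.7 and 50.2 CPM in the Direct RNA libraries and at 359, 236, 204 and 292 CPM in the cDNA libraries, in the order Undiff 1, Undiff 2, Day4 1 and Day4 2. The platforms did not overlap, and the log2 difference was 3.08 ± 0.36 (adjusted p = 4.76e-16). For Tcf7l2 it was 3.52 ± 0.48 (adjusted p = 2.45e-12). It came to 2.70 ± 0.65 for Lef1, 2.03 ± 0.79 for Sfrp4, 1.79 ± 0.46 for Axin2 and 1.37 ± 0.51 for Sfrp2 (adjusted p = 0.000162, 0.0313, 0.00047 and 0.0208). Axin2, Lef1 and Sfrp2 share exonic positions with antisense genes (Gm11670, Gm43352 and Gm26771), as do Ctnnb1, Fzd5, Wnt7b and Wnt11 among the members called lower (Ulk4, Gm38058, AU022754 and Gm8398), and without strand the reads of such partners cannot be told apart. Lgr4, Tcf7l2 and Sfrp4 have no such overlap. The call of Sfrp4 was lost without any single library except Direct RNA Day4 replicate 1 and cDNA Day4 replicate 1 (log2 difference 1.30 to 2.08, adjusted p 0.0622 to 0.36), and that of Sfrp2 without Direct RNA Undiff replicate 1, Direct RNA Undiff replicate 2 or cDNA Undiff replicate 1 (0.95 to 1.20, adjusted p 0.0633 to 0.153).

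Lower in cDNA than in Direct RNA by the largest differences were Lrp5, Wnt6, Wnt7b, Fzd8 and Axin1. Lrp5 (chr19:3584828-3686564, minus strand), a co-receptor known from bone, was at 31.6, 35.3, 81.1 and 65.1 CPM in Direct RNA and at 4.22, 0, 0.759 and 1.93 CPM in cDNA, in the same order of libraries. Its log2 difference was -4.08 ± 0.62 (adjusted p = 6.44e-10), and between states it had log2 fold changes of 0.95 ± 0.61 and -0.64 ± 1.46 (adjusted p = 0.421 and 0.921). All cDNA libraries were well under all Direct RNA libraries. Axin1 (chr17:26138688-26195811, plus strand) showed the same order, at 77.5, 80.4, 77.6 and 67.8 CPM in Direct RNA and 4.22, 9.58, 5.31 and 9.15 CPM in cDNA (log2 difference -2.57 ± 0.35, adjusted p = 2.42e-12).

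Wnt6 (chr1:74771892-74785322, plus strand), a ligand of ectoderm and endoderm, was at 14.3, 3.31, 56.4 and 25.8 CPM in Direct RNA and at 0, 0.958, 0 and 0.963 CPM in cDNA. It was at or under the floor in every cDNA library (log2 difference -3.80 ± 0.81, adjusted p = 1.83e-05), and without Direct RNA Day4 replicate 1 its mean fell under 5 and the call was lost (-3.24, adjusted p = 0.00263). In Direct RNA its Day4 libraries lay above its Undiff libraries (log2 fold change 2.00 ± 0.91, adjusted p = 0.162), and edgeR called it (adjusted p = 0.00965). Wnt7b (chr15:85535437-85582473, minus strand), known from lung and placenta, had 5 and 64 reads in Direct RNA Undiff, 5 and 2 in Direct RNA Day4 and between 1 and 7 in cDNA. Undiff replicate 2 stood apart, and the state test in Direct RNA gave -2.12 ± 0.95 (adjusted p = 0.151). The log2 difference between platforms was -2.96 ± 0.76 (adjusted p = 0.000452), and without that library it was -2.04 (adjusted p = 0.073).

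Fzd8, a receptor of the beta-catenin branch encoded by a single exon, had 2, 4, 7 and 27 reads in Direct RNA and 0, 1, 1 and 8 reads in cDNA, with a log2 difference of -2.75 ± 0.73 (adjusted p = 0.000692) and no call between states in DESeq2 (adjusted p = 0.147 and 0.747). Its platform call was lost without Direct RNA Day4 replicate 2, where the mean fell under 5 (-2.31, adjusted p = 0.0406). The other 9 members called lower in cDNA were Fzd1, Fzd2, Fzd4, Fzd5, Fzd7, Ctnnb1, Tcf7, Wnt9a and Wnt11, with log2 differences from -2.57 for Fzd1 to -1.49 for Wnt9a. Without a single library, the calls of Fzd4 (7 of 8 libraries, adjusted p 0.0569 to 0.31), Fzd5 (any Undiff library, 0.0603 to 0.147), Tcf7 (Direct RNA Undiff replicate 1 or Day4 replicate 2, 0.0523 and just over 0.05) and Wnt9a (either Direct RNA Day4 replicate or cDNA Day4 replicate 2, 0.0751 to 0.281) were lost. The low-count filter of edgeR left out Fzd1, Fzd4, Fzd5 and Fzd8, and Sfrp4 among the members called higher. The platform calls of these genes thus rest on DESeq2 alone. Fzd3 and Fzd10 reached the mean of 5 and were not called (0.46 ± 0.56 and -0.55 ± 0.72).

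The difference between platforms was set against the length of the longest annotated transcript, a feature that the rule did not use. Over the 29 members Spearman's rho was 0.043 and Pearson's r 0.032, and over 10075 genes rho was -0.302. These are descriptions across genes that share the same 8 libraries. Axin1 and Tcf7l2, with transcripts of 3777 and 3715 bases, had log2 differences of -2.57 ± 0.35 and 3.52 ± 0.48.

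**Figure D5:**
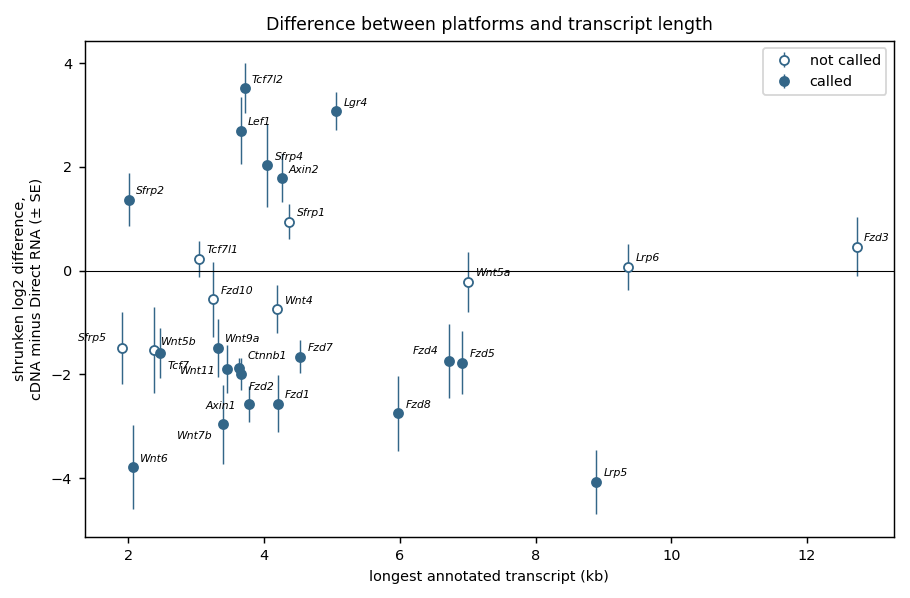
Log2 difference between platforms with its SE (vertical axis, cDNA minus Direct RNA) against the longest annotated transcript in kb (horizontal axis) for the 29 members with a mean of at least 5, with filled points for called members. Members of like length lay on both sides of 0, as for Axin1 at -2.57 and Tcf7l2 at 3.52.

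A fixed list of 59 further pathway genes was read from the same fits. In Direct RNA 7 were called higher at Day4 and 3 lower, and in cDNA 6 were higher and 2 lower. A mean of 5 was reached by 35 of them in Direct RNA, where 9.54% of all genes with such a mean were called higher and 7.67% lower, and by 28 in cDNA, where the shares were 8.69% and 9.24%. Wls, which carries Wnt proteins to the cell surface, had 3 and 7 reads in Direct RNA Undiff and 70 and 135 at Day4, and in cDNA 2 and 7 against 123 and 198. It was called higher on both platforms (log2 fold change 4.40 ± 0.61 and 4.49 ± 0.67), as was the R-spondin Rspo3 (5.08 ± 1.22 and 5.09 ± 1.11), which had at most 1 read in an Undiff library and between 12 and 85 at Day4. The planar polarity gene Vangl1 (-2.36 and -4.59) and the corepressor Tle4 (-1.85 and -2.22) were called lower on both.

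Others were called on a single platform. In Direct RNA these were Rspo4, Ror2, Csnk1d, Nkd1 and Bcl9l, all higher, and the target gene Ccnd1, which was lower. In cDNA they were Dvl3, Gsk3b, Bcl9 and Tle3, all higher. The median log2 fold change over the list was 0.54 in Direct RNA and 0.57 in cDNA. Of the 8 genes listed as targets only 3 in Direct RNA and 4 in cDNA reached a mean of 5, so the others could not be called.

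The cell state was read from marker lists. All 8 pluripotency markers were called lower at Day4 on both platforms, and their sum fell from between 10655.5 and 12730.7 CPM to between 116 and 525 CPM in Direct RNA. In cDNA it fell from between 20814.7 and 23521.6 CPM to between 85 and 923 CPM, with more left in Day4 replicate 2 on both platforms. Of 8 neural markers 1 was called higher (Ncam1) and 2 lower (Tubb3 and Stmn2) on each platform. A mean of 5 was reached by 4 of the 8 in Direct RNA and by 5 in cDNA. The neural sum went from between 628 and 630 CPM to between 132 and 180 CPM in Direct RNA. In cDNA it went from between 639 and 799 CPM to between 641 and 652 CPM. Of all genes with such a mean, 9.54% were called higher and 7.67% lower in Direct RNA, and 8.69% and 9.24% in cDNA.

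The summed levels of endoderm and mesenchyme markers stood higher in every Day4 library than in any Undiff library of the same platform, alongside the members called higher. Of 8 markers of primitive and visceral endoderm, 6 were called higher with Direct RNA and 4 with cDNA, and their sum was between 8.61 and 12.1 CPM at Undiff and between 723 and 1107.7 CPM at Day4 in Direct RNA, and between 4.79 and 8.43 CPM against between 300 and 330 CPM in cDNA. Of 7 markers of fibroblasts and mesenchyme, 4 were called higher on each platform, with sums between 7.71 and 14.3 CPM against between 1231.1 and 2864.6 CPM in Direct RNA and between 4.31 and 9.49 CPM against between 227 and 259 CPM in cDNA. The 4 called mesenchymal markers were the same on both platforms, Col1a1, Col1a2, Col3a1 and Pdgfra, and Col3a1 alone stood at 1852.1 and 847 CPM in Direct RNA Day4. Dcn and Lum had at most 9 reads in a library, and Thy1 had 3 and 6 reads in Direct RNA Undiff against 0 and 3 at Day4 (log2 fold change -1.18 ± 1.37, and -2.85 ± 1.30 in cDNA). Col1a2, Col3a1, Dcn, Lum, Gata6, Afp and Ttr had no read in any Undiff library. Of 6 mesoderm markers 1, Kdr, was called higher in Direct RNA and none in cDNA. Only 1 of the 6 in Direct RNA and 2 in cDNA reached a mean of 5, so the others could not be called. The part of these cell types in the changes of Wnt genes was not tested.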

How the data were processed

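Polyadenylated RNA of R1 mouse ESCs was sequenced in 8 ONT libraries, 4 groups of platform and state with 2 replicates each, assigned to groups and numbered from their labels. The deposited values were unnormalized read counts for each gene. To make them, the authors had aligned reads with minimap2 to mm10 and counted them with htseq-count on the UCSC iGenomes annotation. Direct RNA reads had been counted by strand. The cDNA counting was not stated to use strand. Reads given to no gene (38.1% to 61.7% of each file's total) were left out.

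The members and gene lists were chosen with earlier results of these data known. They and the 6 genes given whatever their values (Ctnnb1, Axin2, Lef1, Tcf7, Tcf7l1 and Tcf7l2) were read from fits of all genes, and the other genes given with every library were those called between states on a platform and the 5 largest called platform differences in each direction. Other members are given by range. The reads per library of Fzd3, of Sfrp5 in Direct RNA and of Dkk3 in cDNA were added after their values were seen. DESeq2 1.42.0 in R 4.3.3 was used with shrunken fold changes, no cutoff on Cook's distance and no independent filtering, separately for each platform, with state as a covariate between platforms, and without shrinkage and fold threshold for the interaction. Adjusted p-values are Benjamini-Hochberg values over all genes of a fit. Alternatives were the quasi-likelihood test of edgeR 4.0.16, TMM size factors, no shrinkage, the Cook's cutoff and independent filtering switched on, a low-count filter (5 reads in 2 libraries), a replicate block and each library left out. The fits were tested on simulated counts.

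Pooled ratios carry exact binomial intervals and shares Wilson intervals at 95%. A group without reads was set to a floor of 3 reads. Replicates of a group differed beyond sampling noise (chi-square per degree of freedom 2.68 to 14.9), and every library was kept. Coordinates and transcript lengths came from GENCODE vM21 (GRCm38), which held all 48 members, and promoter sequences from RefSeq (GRCm38.p6).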

Additional observations from a re-analysis of the deposited data

How the results depend on the processing

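Counts per gene were low and each group had 2 libraries, so leaving out a library left a lone sample that was assumed to vary like the other group, and many calls were then lost. The number of members higher at Day4 was 11 in Direct RNA and 4 to 8 with a library left out, and 10 in cDNA and 2 to 5 with a library left out. The number lower was 1 in Direct RNA and 0 with any library left out, and 1 in cDNA and 0 to 1 with a library left out. With edgeR 16 members were higher and 2 lower in Direct RNA, and 12 were higher and 2 lower in cDNA. The additions were Fzd3, Fzd8, Lrp5, Sfrp5 and Wnt6 (higher) and Tcf7 (lower) in Direct RNA, and Fzd3 and Wnt9a (higher) and Tcf7 (lower) in cDNA. The calls kept under each of the 10 settings were those of Fzd1, Fzd2, Sfrp1 and Wnt11 in Direct RNA and of Sfrp1 and Wnt4 in cDNA. Of 19 results per gene and platform that were uncalled, 5 turned direction with a library left out and the other 14 did not under any setting. Log2 fold changes ranged from -0.29 to 0.99 for Axin2 and from -0.89 to 0.69 for Lef1 in Direct RNA, and in cDNA from -0.59 to 0.59 for Lef1, from -0.35 to 0.99 for Sfrp2 and from -0.01 to 2.12 for Wnt5b. The causes were not tested. For the 23 calls, 61 of 230 values under the settings lost the call and none turned direction. For the 19 uncalled results, 4 of 175 values gained a call and 8 turned direction. The counts between platforms and the interaction count stayed within 1.5 times. Scaling with TMM size factors moved the median of genes with a mean of at least 5 by less than 0.1 on the log2 scale. With the low-count filter, and with the Cook's cutoff and independent filtering, 13 members were higher in Direct RNA, Fzd3 and Sfrp5 being added. In cDNA the low-count filter gave 11 members higher, Wnt9a being added.

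Same-numbered libraries of the states share only a number. The correlation of their deviations was 0.214 in Direct RNA and 0.5 in cDNA over 1395 genes, with 2 pairs each. With the replicate block 8 members were higher and 0 lower at Day4 in Direct RNA, and 6 were higher and 1 lower in cDNA. The calls lost were those of Fzd4, Fzd5, Sfrp2 and Wnt5b in Direct RNA and of Dkk1, Fzd1, Fzd7 and Wnt2 in cDNA. Between platforms the same correlation was 0.124 at Undiff and -0.416 at Day4. A crossed pairing, chosen after seeing the data, gave 5 members higher and 12 lower in cDNA, against 5 and 13 with the block as numbered. The platform calls of Sfrp4 and Fzd4 were lost with either block, and that of Wnt9a with the crossed pairing.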
